A study of Mus musculus with 6 samples.

Results

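The kinetochore is the protein assembly that ties each chromosome to the microtubules of the mitotic spindle. It is built on the centromere, where nucleosomes carry the histone H3 variant Cenpa in place of ordinary H3. An inner layer stays bound to this chromatin, an outer layer that binds microtubules is added for mitosis, and the spindle checkpoint delays the separation of sister chromatids until every kinetochore is attached. A list of 42 mouse genes of these structures was examined here. Array probe sets annotated with exactly 1 gene symbol that is in the list, by its older or current name, were kept, which gave 41 of the 42 genes among 18195 genes with such a probe set. Hjurp, the chaperone that deposits Cenpa, was not analysed, since each of its 5 probe sets is annotated with several symbols. All 41 genes were bright enough to be tested.

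The cells were myoblasts, the dividing precursors of skeletal muscle fibres, taken from the hindlimb muscle of male C57BL/6JRj mice aged 9 to 15 weeks. They were grown for 72 hours on dishes coated with collagen I (3 samples) or with fibronectin (3 samples), and all samples shared 1 growth medium, Ham's F-10 containing 20% serum and 2.5 ng/ml basic fibroblast growth factor. No allele or transgene is given for any group. The labels do not say how many animals were pooled, how pure the cultures were, or whether the samples came from separate cultures, so every p-value reflects variation among these 6 samples alone, possibly of technical origin.

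RNA was measured on an Affymetrix mouse array, and all values are log2 probe set signals as deposited, so a difference of 1 is a doubling. Sample medians over all probe sets ran from 2.30 to 2.39. Pairs of samples correlated across probe sets at 0.997 to 0.998 when they shared a coating and at 0.994 to 0.995 when they did not. The number of arrays limits the precision. A gene was tested when its mean signal reached 2.33, the median over all probe sets, and was called when its limma p, adjusted by Benjamini and Hochberg over the 10942 genes tested, was under 0.05. By this rule 4384 genes (40.1%) were called, 2173 higher and 2211 lower on fibronectin. The balance depends on the scaling, since 64.3% of the calls were higher with samples centred on their medians and 49.6% without. The median change over all genes tested was 0.00 without centring and 0.06 with it. Myoblast markers were present, with all 8 above the filter, among them the lineage transcription factors Myod1 at means of 10.10 on collagen and 10.04 on fibronectin and Myf5 at 8.41 and 8.49.

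Expression of these genes was almost uniformly higher on fibronectin. Of the 41 genes 38 were called higher (92.7%), against 19.9% of all genes tested, and 1 was called lower, against 20.2%. The same 38 genes had every fibronectin sample above every collagen sample, an order seen in 27.4% of all genes tested, and the reverse order, held by 25.9% of all genes tested, was found in 1. The differences were small. The median log2 change was 0.38, or 1.3-fold, beside 0.00 over all genes tested, and no member reached 1.5-fold. Changes ran from -0.16 for Zwint to 0.56 for Sgo1, and 37 members had a change of at least 0.2, which 16.5% of all genes tested had. Spread between samples was smaller than most of these differences, with a median SD of 0.07 on collagen and 0.04 on fibronectin. Averaged over the 41 genes, the signal was 6.53, 6.53 and 6.56 in the collagen samples and 6.89, 6.91 and 6.90 in the fibronectin samples.

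**Figure D1:**
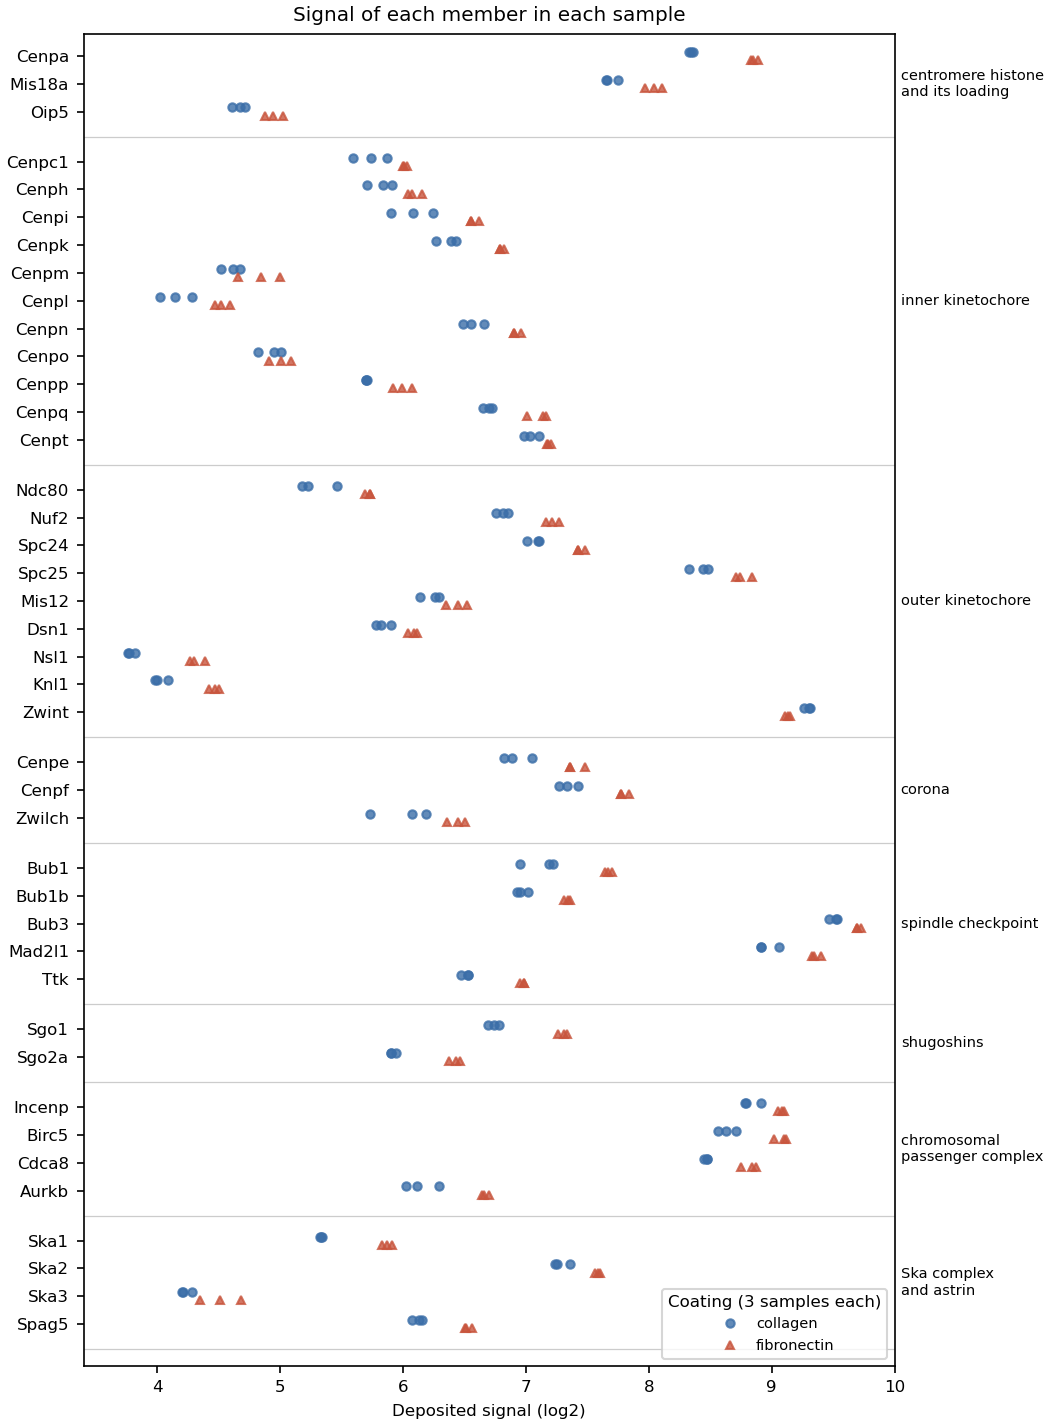
Deposited log2 signal (horizontal axis) of the 41 genes in each sample, grouped by complex. Blue circles are the 3 collagen samples and red triangles the 3 fibronectin samples. The triangles lie to the right of all circles for 38 genes, to the left for Zwint, and overlap them for Cenpm and Cenpo.

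The cells were measured in bulk, so a larger share of dividing cells and more of these RNAs per cell cannot be told apart. Genes that mark cycling cells moved with the kinetochore genes. The proliferation antigen gene Mki67 had signals of 8.60, 8.57 and 8.59 on collagen and 8.92, 9.08 and 9.11 on fibronectin. The topoisomerase Top2a, the cyclin Ccna2 and the mitotic kinase Cdk1 rose by log2 changes of 0.47, 0.48 and 0.42. Pcna and Mcm2, which act in DNA replication, were at log2 changes of 0.10 and 0.07, which did not pass. Pcna did pass with the 75th percentile filter, samples centred, an intensity trend or array weights, at adjusted p of 0.0483, 0.0184, 0.012 and 0.0481. Over the 6 measured cycling genes the mean signal ranged from 9.08 to 9.16 on collagen and from 9.43 to 9.48 on fibronectin. Their part in the results on kinetochore genes was not tested.

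Differentiating muscle genes moved the other way. The 7 that were tested were called lower as reported and in every alternative in which they were tested, with a median log2 change of -0.83, and the mean signal over the list of 8 was 5.34 to 5.44 on collagen and 4.34 to 4.63 on fibronectin. Myog, which drives terminal differentiation, had signals of 4.90, 4.94 and 4.60 on collagen and 4.17, 4.01 and 3.77 on fibronectin. The troponin genes Tnni1 and Tnnt2 fell by 1.56 and 0.80 on the log2 scale, the actin genes Acta1 and Actc1 by 1.53 and 0.42, the embryonic myosin gene Myh3 by 1.15 and the fusion gene Mymk by 0.75. Of the 8 myoblast markers 1, the cadherin Cdh15, was called higher (0.24) and 3 were called lower: the acetylcholine receptor subunit Chrna1 (-0.31), the intermediate filament gene Des (-0.23) and the adhesion gene Ncam1 (-0.16). Beside the counts of both lists, 19.9% of all genes tested were called higher and 20.2% lower. Myod1, Myf5, Itga7 and the stem cell factor Pax7 had changes of -0.06, 0.08, -0.03 and -0.13 and were not called, though Pax7 passed with the 75th percentile filter, probe sets averaged (-0.25) or an intensity trend (adjusted p = 0.0456, 0.0115 and 0.0305). Ncam1 lost its call when any 1 of the 6 samples was left out (adjusted p of 0.051 to 0.106), and Des without collagen replicate 3 or fibronectin replicates 1 or 3 (0.0505, 0.0573 and 0.0565). Both also lost it with no brightness filter (0.0934 for Ncam1, 0.0575 for Des) and with samples centred (0.163 and 0.0686). With probe sets averaged Ncam1 lost its call too (0.079). Over the 8 markers the mean signal was 8.41 to 8.46 on collagen, 8.31 to 8.39 on fibronectin. The part of differentiation in the kinetochore results was not tested.

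Markers of other cell types of muscle were mostly near the array's floor. All 5 endothelial markers lay below the filter, with means of at most 1.77, and their mean signal was 0.87 to 1.04 on collagen and 0.95 to 1.09 on fibronectin. Of 8 fibroblast markers 6 lay below the filter, with Lum at 0.37 and 0.39 and Pdgfra at 1.12 and 1.70 on collagen and fibronectin. The list's mean signal was 2.31 to 2.42 on collagen and 2.36 to 2.53 on fibronectin, and the 2 members above the filter, Col3a1 and Thy1, had log2 changes of 0.21 and -0.32. Col3a1 was bright, with means of 9.33 on collagen and 9.54 on fibronectin, whereas Thy1 was dim, at 2.71 and 2.38. Col3a1 was not called without fibronectin replicates 2 or 3 (adjusted p = 0.0581 and 0.0516), and Thy1 was called without fibronectin replicate 2 but not without any other sample (0.0573 to 0.111). With no brightness filter neither was called (0.0518 for Col3a1, 0.093 for Thy1). Col3a1 was also not called with probe sets averaged (0.0661), nor Thy1 with samples centred (0.0685), quantile normalisation run again (0.0642), an intensity trend (0.051) or array weights (0.054). Of 5 leukocyte markers 3 lay below the filter, with Ptprc at 0.47 and 0.53, while Cd68, which is also a lysosomal protein gene, fell from 4.63 to 3.36 and Csf1r had a change of -0.03. The leukocyte list's mean signal was 1.93 to 2.08 on collagen, 1.67 to 1.86 on fibronectin. Of the 2 measured Schwann cell markers S100b lay below the filter and Sox10 had a change of 0.05, with a mean signal over both of 2.32 to 2.38 on collagen and 2.33 to 2.42 on fibronectin. Sample means of the fibroblast, endothelial and Schwann cell lists overlapped between the coatings, and those of the leukocyte list did not. Within the leukocyte list Cd68 was the only gene whose samples did not overlap between the coatings. The part of the leukocyte markers in the kinetochore results was not tested.

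Promoters of the members are shown for a few genes because most members moved together. Many genes expressed late in the cell cycle carry 2 kinds of element near the start of transcription: a cell cycle homology region (CHR), bound by the DREAM and MuvB complexes, and CCAAT boxes, bound by NF-Y. RefSeq windows of the GRCm38.p6 build, 250 bases before to 50 bases after the start, were found for 35 of the 41 genes, as 39 windows. Stretches of 120 bases before the start and 30 bases from the start onwards follow, 5′ to 3′ on the gene's strand, with CHR letters (TTTGAA or TTCGAA) and CCAAT letters on either strand in capitals. On the opposite strand these read TTCAAA and ATTGG. The first 5 genes were called higher, Zwint was called lower and Cenpo was not called. They were chosen after their motif positions were seen.
Cenpa: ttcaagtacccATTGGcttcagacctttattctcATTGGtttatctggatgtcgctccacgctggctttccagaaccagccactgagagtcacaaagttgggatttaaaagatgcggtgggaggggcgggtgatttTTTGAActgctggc
Cenpf: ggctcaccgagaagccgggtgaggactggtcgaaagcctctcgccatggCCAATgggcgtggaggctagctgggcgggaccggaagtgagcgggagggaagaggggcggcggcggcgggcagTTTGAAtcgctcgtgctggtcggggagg
Spc25: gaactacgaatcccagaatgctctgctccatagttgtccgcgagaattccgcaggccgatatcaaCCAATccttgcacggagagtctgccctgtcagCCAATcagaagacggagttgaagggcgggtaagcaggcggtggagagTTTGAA
Bub1: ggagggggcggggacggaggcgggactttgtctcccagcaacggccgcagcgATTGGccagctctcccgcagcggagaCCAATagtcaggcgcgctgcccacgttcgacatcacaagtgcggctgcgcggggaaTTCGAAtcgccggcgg
Ttk: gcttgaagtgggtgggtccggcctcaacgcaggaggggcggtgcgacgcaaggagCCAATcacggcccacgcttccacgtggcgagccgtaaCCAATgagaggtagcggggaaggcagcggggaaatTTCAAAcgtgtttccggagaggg
Zwint: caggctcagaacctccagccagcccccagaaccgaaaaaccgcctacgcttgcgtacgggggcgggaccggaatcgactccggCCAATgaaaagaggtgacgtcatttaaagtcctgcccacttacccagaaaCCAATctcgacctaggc
Cenpo: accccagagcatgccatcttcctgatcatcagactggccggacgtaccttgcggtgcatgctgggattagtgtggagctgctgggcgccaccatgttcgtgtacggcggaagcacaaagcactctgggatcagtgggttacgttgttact

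These stretches lie at chr5:30666766-30666915 on the plus strand for Cenpa, chr1:189688057-189688206 on the minus strand for Cenpf, chr2:69206184-69206333 on the minus strand for Spc25 and chr2:127831830-127831979 on the minus strand for Bub1. Those of Ttk, Zwint and Cenpo lie at chr9:83834569-83834718 on the plus strand, chr10:72654726-72654875 on the plus strand and chr12:4233936-4234085 on the minus strand. In the promoters of Cenpa, Cenpf, Spc25, Bub1 and Ttk the CHR letters begin 16, 2, 24, 14 and 7 bases after the start, counting the start as 0, with CCAAT letters upstream of them. The Zwint stretch has CCAAT letters on both sides of the start and no CHR letters, and the Cenpo stretch has neither. Cenpm, which was also not called, was not printed. Its window has CHR letters at -83 and CCAAT letters at -172 and -131 from the start. Any part of these letters in the calls was not tested.

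Over all member windows CHR letters were found in 19 of 39 (48.7%), against 13.4% of the 11442 windows of all genes tested and 19.2% of all 32851 windows. CCAAT letters were in 28 windows (71.8%), against 37.5% and 37.4%. E2F-type letters (TTTCCCGC, TTTCGCGC, TTTGCCGC or TTTGGCGC on either strand) were in 4 windows (10.3%), against 4.12% and 2.26%. None of these motifs contains another, and windows of 1 gene can share bases. Both CHR and CCAAT letters were in 15 member windows (38.5%), against 5.33% of the windows of all genes tested. By position, 12 windows had CHR letters beginning in the 50 bases from the start onwards (30.8%), against 1.69% of the windows of all genes tested. CCAAT letters were most frequent between 100 and 51 bases before the start, in 13 windows (33.3%), against 14.9%. These are letter matches and not measured binding sites, and they were counted with the changes of the members known. Of the 32 genes called higher that had a window, 17 had CHR letters. Mad2l1, Nuf2, Birc5, Cenpp and Cenpt were called higher and have none of the 3 motifs in these windows.

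**Figure D2:**
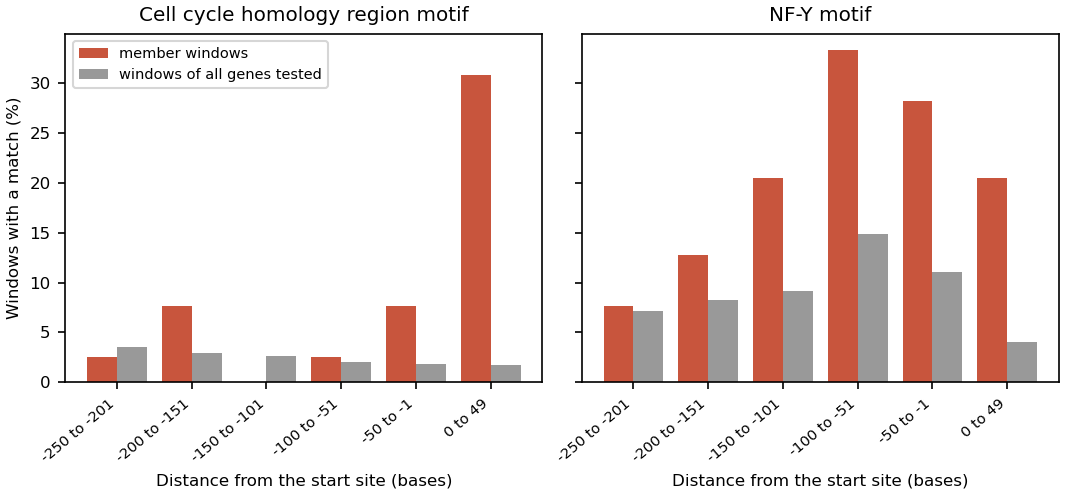
Share of promoter windows with a motif match (vertical axis, percent) by distance of the match from the start site in bins of 50 bases (horizontal axis). Red bars are the 39 windows of the members and grey bars the 11442 windows of all genes tested. The CHR bar from 0 to 49 bases stands at 30.8% for members and 1.69% for all genes tested.

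Centromeric chromatin is renewed after each division by loading new Cenpa, a step licensed by the Mis18 complex. Cenpa itself was among the clearest differences. Its signals were 8.34, 8.33 and 8.36 on collagen and 8.85, 8.83 and 8.89 on fibronectin, a gap of 0.46 between the lowest fibronectin and the highest collagen sample. It rose 1.42-fold (log2 change 0.51, SE 0.04, adjusted p = 0.000114). Mis18a rose 1.28-fold, from 7.69 ± 0.05 to 8.04 ± 0.07 (SD, n = 3). Oip5, the Mis18-beta subunit, rose 1.21-fold, from 4.66 ± 0.05 to 4.94 ± 0.07. All 3 measured genes of this group were called higher, with no overlap between the coatings. Beside this and the group counts below, 19.9% of all genes tested were called higher. Every fibronectin sample lay above every collagen sample in 27.4% of all genes tested.

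The inner kinetochore, or constitutive centromere-associated network, binds Cenpa nucleosomes throughout the cell cycle. Of its 11 genes in the list 9 were called higher, and the median log2 change, 0.29, was the lowest of the 8 groups. Cenpc1, which links Cenpa nucleosomes to the outer layer, had signals of 5.59, 5.87 and 5.74 on collagen and 6.00, 6.03 and 6.01 on fibronectin. The fibronectin samples were nearly identical, the collagen samples were spread over more than the gap between the groups, and the rise was 1.21-fold (adjusted p = 0.0158). Within the subcomplex of Cenph, Cenpi, Cenpk and Cenpm, Cenpi rose by 0.50 and Cenpk by 0.44 on the log2 scale. Cenph rose by 0.27.

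Cenpm, the other subunit of that subcomplex, did not pass. Its signals were 4.62, 4.52 and 4.67 on collagen and 4.66, 5.0 and 4.84 on fibronectin. Fibronectin replicate 1 lay among the collagen samples, and the log2 change was 0.23 (SE 0.09, adjusted p = 0.0685). Without fibronectin replicate 1 it was 0.32 and passed (adjusted p = 0.0178), and it also passed with samples centred, with an intensity trend and with array weights, at adjusted p of 0.0402, 0.0441 and 0.0363. Over all settings run, its adjusted p lay between 0.0178 and 0.191.

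Cenpl and Cenpn, partners in a subcomplex that contacts the Cenpa nucleosome, rose by 0.38 and 0.35. Cenpp and Cenpq rose by 0.29 and 0.41, whereas Cenpo of the same subcomplex showed no detectable difference. Cenpo had signals of 4.95, 4.82 and 5.01 on collagen and 5.01, 5.09 and 4.91 on fibronectin, so the groups overlap. Its log2 change was 0.08, with a 95% interval from -0.08 to 0.23 and an adjusted p of 0.41. Cenpt, a histone-fold protein that recruits the Ndc80 complex along its own path, went from 7.11, 7.03 and 6.98 to 7.18, 7.17 and 7.20. It had the smallest change among the genes called higher, 0.15 (adjusted p = 0.0444). That call was lost in each fit without 1 sample except the fit without collagen replicate 1, at adjusted p of 0.112 without collagen replicate 2, 0.122 without collagen replicate 3, and 0.101, 0.0898 and 0.12 without fibronectin replicates 1, 2 and 3. It was also lost with the replicate number as a block (adjusted p = 0.0711) and with no brightness filter (0.118).

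**Figure D3:**
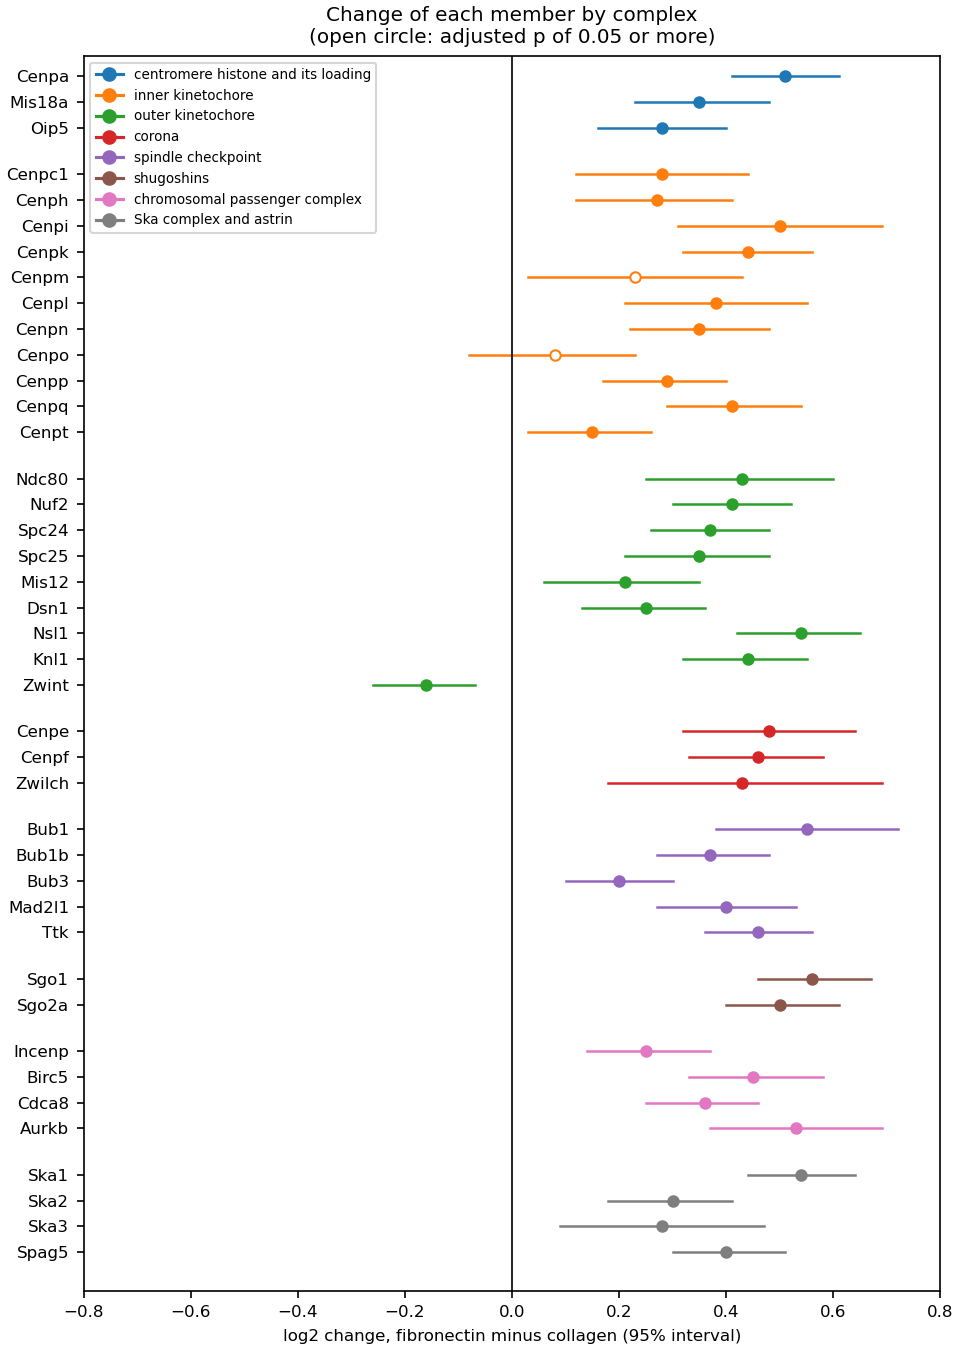
Fitted log2 change from collagen to fibronectin (horizontal axis) of the 41 genes with 95% intervals, coloured by complex. Open circles mark Cenpm and Cenpo, which did not pass, and Zwint at -0.16 is the point to the left of 0.

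The outer kinetochore is a network of the Ndc80 complex, which binds microtubules, the Mis12 complex, which anchors it, and the scaffold Knl1. The 4 genes of the Ndc80 complex changed by similar amounts. Ndc80 and Nuf2, whose globular heads touch the microtubule, rose by 0.43 and 0.41, and Spc24 and Spc25, at the inner end, rose by 0.37 and 0.35. Ndc80 had signals of 5.23, 5.18 and 5.46 on collagen and 5.69, 5.73 and 5.73 on fibronectin. The 95% intervals of the 4 changes overlap, running from 0.21 at the lowest to 0.60 at the highest.

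The Mis12 complex was less even. Nsl1 had signals of 3.76, 3.77 and 3.82 on collagen and 4.27, 4.39 and 4.30 on fibronectin, with no overlap. It rose by 0.54 on this brightest probe set (SE 0.05, adjusted p = 0.000169). The second Nsl1 probe set, at a mean signal of 2.35, had a change of -0.06 with overlapping samples. Dsn1 rose by 0.25 and Mis12 by 0.21. The intervals of Nsl1 (0.42 to 0.65) and Mis12 (0.06 to 0.35) do not overlap, though the difference between these genes was not tested. Mis12 lost its call without collagen replicate 1 (adjusted p = 0.077), collagen replicate 2 (0.0613), fibronectin replicate 2 (0.082) or fibronectin replicate 3 (0.103), and with no brightness filter (0.083). Knl1, formerly Casc5, on which the Bub proteins assemble, rose 1.35-fold, from signals of 4.00, 4.09 and 3.98 to 4.42, 4.50 and 4.47.

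Zwint, the partner of Knl1 that helps hold the Rod, Zw10 and Zwilch proteins at the kinetochore, was the exception. Its brightest probe set read 9.30, 9.31 and 9.26 on collagen and 9.13, 9.15 and 9.11 on fibronectin. Every fibronectin sample lay below every collagen sample. The fall was 1.12-fold (log2 change -0.16, SE 0.04, 95% interval -0.26 to -0.07, adjusted p = 0.0166). It did not pass without collagen replicate 2 (adjusted p = 0.0564) or fibronectin replicate 3 (0.0589), with no brightness filter (0.0591), with samples centred (log2 change -0.11, adjusted p = 0.0834) and with probe sets averaged (-0.11, 0.078). Across all settings run the adjusted p lay between 0.0023 and 0.0834, and the sign stayed negative. All 7 Zwint probe sets had negative changes, from -0.27 to -0.02. Of them only that at -0.27 passed when all probe sets were tested together (adjusted p = 0.0467), with signals of 5.50, 5.39 and 5.33 on collagen and 5.13, 5.16 and 5.13 on fibronectin. No Zwint probe set showed a rise.

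The corona is the outermost, fibrous layer that captures microtubules before stable attachment. Its 3 listed genes were all called higher, by amounts from 0.43 to 0.48. Cenpe, a kinesin that moves chromosomes toward the spindle equator, had signals of 7.05, 6.89 and 6.82 on collagen and 7.36, 7.48 and 7.36 on fibronectin. Cenpf, a large coiled-coil protein, rose by 0.46 (adjusted p = 0.000518). Zwilch, a subunit of the complex that brings dynein and checkpoint proteins to the kinetochore, read 5.73, 6.07 and 6.19 on collagen and 6.45, 6.36 and 6.5 on fibronectin. Collagen replicate 1 was the low sample there, and the SD on collagen, 0.24, was the largest of any member. Zwilch rose by 0.43 (adjusted p = 0.0161) and lost its call without fibronectin replicate 3 (0.40, adjusted p = 0.0536).

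The 5 spindle checkpoint genes of the list were all called higher on their brightest probe sets. The kinase Ttk (Mps1), which starts checkpoint signalling by phosphorylating Knl1, had signals of 6.53, 6.47 and 6.53 on collagen and 6.98, 6.95 and 6.98 on fibronectin, with a change of 0.46 (adjusted p = 0.000178). Bub1, a kinase that docks on phosphorylated Knl1, read 6.95, 7.19 and 7.22 on collagen and 7.67, 7.64 and 7.70 on fibronectin. Its change of 0.55, or 1.46-fold, was the second largest among the members, and collagen replicate 1 was its lowest sample. Mad2l1 (Mad2) and Bub1b (BubR1), which with Bub3 form the complex that inhibits the anaphase-promoting complex, rose by 0.40 and 0.37. Mad2l1 signals were 9.06, 8.91 and 8.91 on collagen and 9.40, 9.33 and 9.34 on fibronectin.

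Bub3, which tethers Bub1 and Bub1b to Knl1, had the smallest rise of this group, from 9.53, 9.52 and 9.47 to 9.69, 9.69 and 9.73 (log2 change 0.20, adjusted p = 0.00846). That value comes from a probe set of the _s_at type, whose probes can match several transcripts. The other Bub3 probe set above the filter read 6.22, 6.20 and 6.23 on collagen and 6.21, 6.18 and 6.20 on fibronectin. Its change was -0.02. A dim Bub3 probe set, at a mean signal of 1.78, rose by 0.50 (adjusted p = 0.0108 over all probe sets), so the probe sets of Bub3 disagree.

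Shugoshins protect cohesin at the centromere until anaphase. Sgo1 had the largest change of all members, 1.48-fold (log2 change 0.56, SE 0.05, adjusted p = 0.00011), with signals of 6.78, 6.74 and 6.69 on collagen and 7.31, 7.26 and 7.33 on fibronectin. Its second probe set rose too, by 0.46. Among all genes tested 186 had a change at least as large. Sgo2a, listed as Sgol2, read 5.94, 5.90 and 5.90 on collagen and 6.37, 6.43 and 6.46 on fibronectin, a rise of 0.50. In both genes the coatings were separated by at least 0.43.

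The chromosomal passenger complex corrects faulty attachments through its kinase, Aurkb. All 4 subunits were called higher. Aurkb had signals of 6.02, 6.11 and 6.29 on collagen and 6.64, 6.66 and 6.70 on fibronectin, a rise of 0.53. Birc5 (survivin) and Cdca8 (borealin), which bring the complex to the centromere, rose by 0.45 and 0.36. Birc5 went from 8.63 ± 0.08 to 9.08 ± 0.05. The scaffold Incenp rose by 0.25 on its brightest probe set, which is of the _x_at type and may bind other transcripts, and by 0.38 on the next brightest. The other Aurkb probe set rose by 0.62, and the other Cdca8 probe sets by 0.43 and 0.57.

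The Ska complex tracks the ends of microtubules and strengthens the grip of the Ndc80 complex. Ska1 had signals of 5.34, 5.32 and 5.33 on collagen and 5.91, 5.83 and 5.87 on fibronectin. The rise was 1.45-fold (log2 change 0.54, adjusted p = 0.000106), the smallest adjusted p among the members. Ska2 rose by 0.30. Ska3 read 4.20, 4.28 and 4.21 on collagen and 4.35, 4.51 and 4.68 on fibronectin, so its fibronectin samples were spread over more than the gap of 0.06 to the collagen samples. Its change was 0.28 (adjusted p = 0.0281). The call was lost without collagen replicate 1, 2 or 3 (adjusted p of 0.0764, 0.0516 and 0.0723) and without fibronectin replicate 2 or 3 (0.0652 and 0.0658). It was also lost with no brightness filter (0.0725). Spag5 (astrin), which joins kinetochores with end-on attachments, rose by 0.40.

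**Figure D4:**
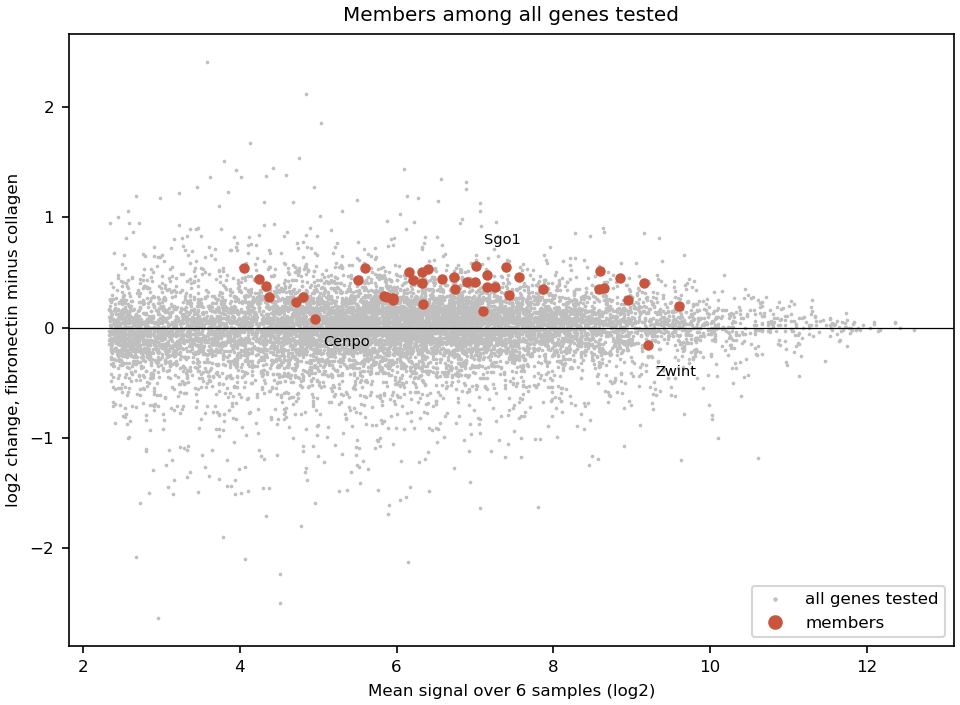
Log2 change from collagen to fibronectin (vertical axis) against mean log2 signal over the 6 samples (horizontal axis). Grey points are the 10942 genes tested and red points the 41 members. The members form a band above 0 over their whole range of signal, with Zwint below it at -0.16, and their changes are smaller than those of the genes at the edges of the cloud.

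Members measured by several probe sets gave a check within each gene. The 41 genes had 87 probe sets, 72 of them above the filter, and 23 genes had more than 1. When all 45037 probe sets outside the controls were tested together, 4.62% of them were called higher and 5.56% lower. These shares include probe sets below the filter, whereas the member probe sets counted next all lie above it. By that rule 30 of the 41 brightest probe sets were called higher and 11, that of Zwint included, were not called. Of the others, 12 of the 31 above the filter were called higher, 1 was called lower, the Zwint probe set given above, and 18 were not called. Probe sets of Mis18a gave 0.35 and 0.42, those of Cenpn 0.35 and 0.38, those of Cenpe 0.48 and 0.54 and those of Spag5 0.40, 0.49 and 0.53. Others were further apart. The second probe set of Cenpk, at a mean signal of 3.21, had a change of 0.15 with overlapping samples against 0.44 for the brightest. Those of Cenpf gave 0.23 and 0.43 against 0.46. The second probe set of Nsl1, at a mean signal of 2.35, had a change of -0.06 and overlapping samples against 0.54. All 6 Cenpo probe sets failed to pass, with changes from -0.08 to 0.23. The brightest probe set was of the _s_at or _x_at type in 8 genes. With those types left out, an alternative added after the data were seen, 36 of 40 tested members were called higher. Of all genes tested 20.2% were called higher in that setting. Bub3 was the gene that lost its call (log2 change -0.02, adjusted p = 0.769).

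**Figure D5:**
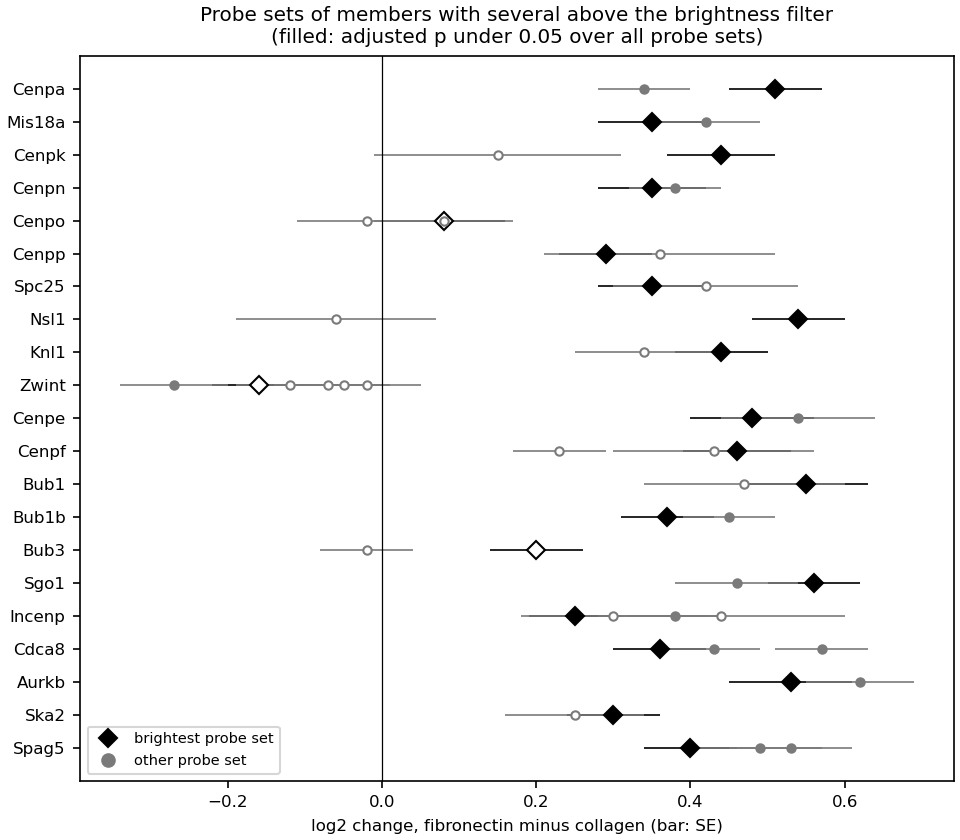
Log2 change with SE (horizontal axis) of each probe set above the brightness filter, for members with more than 1. Black diamonds are the brightest probe set and grey circles the others, filled where the adjusted p over all probe sets was under 0.05. The Zwint probe sets all lie left of 0, and those of Cenpo and the second ones of Bub3 and Nsl1 lie near it.

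Individual samples did not carry the pattern. Collagen replicate 1 was the lowest collagen sample for 13 members and the highest for 15, and collagen replicates 2 and 3 were the lowest for 17 and 11. Among fibronectin samples replicates 1, 2 and 3 were the highest for 7, 18 and 16 members. Leaving out 1 sample at a time left between 34 and 38 members called higher, with a median change between 0.37 and 0.39. In those fits 14.9% to 18.9% of all genes tested were called higher. With no sample left out the count ranged from 33 of 34 tested, with a filter at the 75th percentile, to 39. The count of 39 came with samples centred, an intensity trend or array weights. Over the settings with no sample left out 8.25% to 27.6% of all genes tested were called higher.

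Other kinetochore and checkpoint genes outside the 42 were mostly higher as well. Of 24 tested genes 17 were called higher (70.8%) and 2 lower, against 19.9% and 20.2% of all genes tested. The median log2 change was 0.28. Haspin, the kinase that marks centromeric histone H3 for the passenger complex, rose 1.62-fold from 3.63 ± 0.12 to 4.32 ± 0.08. Cenpv, a centromere protein linked to the passenger complex, rose 1.65-fold. Cenpw, the histone-fold partner of Cenpt, rose by 0.51 where Cenpt rose by 0.15. Trip13, an ATPase that helps take apart the checkpoint complex, rose by 0.36, Spdl1, which recruits dynein to kinetochores, by 0.49, and Knstrn, a partner of Spag5, by 0.29.

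Mad1l1, the checkpoint protein that converts Mad2 to its active form, fell, opposite to its partner Mad2l1. Its signals were 5.0, 4.95 and 5.13 on collagen and 4.62, 4.76 and 4.76 on fibronectin, a fall of 1.24-fold (log2 change -0.31, adjusted p = 0.007). Ndel1, a dynein regulator, fell by 0.21 (adjusted p = 0.00976), while its paralogue Nde1 had a change of 0.36 and was called higher. Both falls were called in every alternative in which the gene was tested; Mad1l1 was not bright enough for the filter at the 75th percentile.

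The checkpoint acts on the anaphase-promoting complex, a ubiquitin ligase of many subunits. Of 19 tested genes of this complex and its regulators 8 were called higher (42.1%) and 1 lower, with a median change of 0.12. Over all genes tested 19.9% were called higher and 20.2% lower. The activator Cdc20, which the checkpoint proteins bind, rose by 0.47, from 8.95, 8.85 and 8.76 to 9.40, 9.33 and 9.25. The ubiquitin-conjugating enzymes Ube2c and Ube2s rose by 0.37 and 0.24, and the inhibitor Fbxo5 by 0.40. In the whole list 10 genes did not pass. Among core subunits, Anapc1 rose by 0.24 and Cdc23 by 0.34, but with probe sets averaged Anapc1 was at -0.13 and Cdc23 at 0.17, and neither passed (adjusted p = 0.0813 and 0.0683). Cdc23 also did not pass with _s_at and _x_at probe sets left out (0.05, adjusted p = 0.462). Anapc7 fell by 0.15 (adjusted p = 0.0498). Its call was lost without collagen replicates 1, 2 or 3 (adjusted p = 0.0683, 0.0892 and 0.128) and without fibronectin replicates 1 or 3 (0.154 and 0.111), with the replicate block (0.0728), with samples centred (-0.09, 0.232), with probe sets averaged (0.144), without the filter (0.128), with array weights (0.0514) and without the _s_at and _x_at types (0.0507).

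Cohesin holds sister chromatids together until separase cuts it, and shugoshins guard it at the centromere. Of 16 tested genes of cohesin, its regulators and separase 7 were called higher (43.8%) and 2 lower, with a median change of 0.15. Over all genes tested 19.9% were called higher and 20.2% lower. Without fibronectin replicate 3 the count of higher genes was 4, and with no brightness filter it was also 4. In these settings 15.3% and 8.25% of all genes tested were called higher. Esco2, which acetylates cohesin in S phase, rose 1.51-fold from a dim 3.07 ± 0.16 to 3.67 ± 0.19. Cdca5 (sororin), which stabilises cohesin on chromatin, rose by 0.31, and the subunits Stag1 and Smc3 by 0.33 and 0.24. Pttg1 (securin), the inhibitor of separase, fell from 10.14, 10.01 and 9.99 to 9.78, 9.87 and 9.68. Nipbl, which loads cohesin, fell by 0.35 on its brightest probe set, and with probe sets averaged it had a change of -0.09 and did not pass (adjusted p = 0.0955).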

How the data were processed

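Expression was measured in 3 collagen and 3 fibronectin samples, grouped by their titles. The deposited values are log2 signals of 45101 probe sets. Per the submitters' processing notes the authors ran RMA in Affymetrix Expression Console, a background correction with quantile normalisation and summary by probe set. Its version and the scan dates were not given in the sources used here, and no batch was tested. This removes a shift shared by most genes and compresses changes of dim probe sets.

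Probe sets were named from the platform's annotation, updated through RefSeq GRCm38.p6 (18033 of 18195 gene identifiers found): 34958 had 1 gene and 932 had several. Each gene was its brightest probe set. Genes with a mean of at least 2.33 were tested in R 4.3.3 with limma 3.58.1 (eBayes, two-sided, no covariates, 4 residual and 3.8 prior degrees of freedom). An exact permutation test of 3 against 3 cannot go below p = 0.1, so none was run. Member genes, the added lists and the complexes were chosen with earlier results of these data known; members were all named, and of the other kinetochore, anaphase-promoting complex and cohesin lists the 6 genes with the smallest p and those called lower, all cycling cell markers, and cell type markers above the filter. Nde1 and the dim markers Lum, Pdgfra, Ptprc and S100b were named after their values were seen. Ccnb1 and a few other listed genes are not analysed here. Alternatives changed the filter, normalisation, probe set choice, variance model, sample weights, replicate block and samples. Promoter sequences are RefSeq's; Aurkb, Incenp, Nsl1, Ska1, Spc24 and Zwilch had no entry used here. Plots used matplotlib 3.10.9 (Python 3.11.15).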

Additional observations from a re-analysis of the deposited data

How the results depend on the processing

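The number of members called higher was 38 and stayed between 33 and 39 over the settings run. Over the same settings 8.25% to 27.6% of all genes tested were called higher. The count of members called lower, which is Zwint alone, was 0 with no brightness filter, with samples centred and with probe sets averaged, and between 0 and 1 when 1 sample was left out. The members' median log2 change was 0.40 with a filter at the 75th percentile, 0.43 with samples centred and 0.41 without _s_at and _x_at probe sets, a setting chosen after seeing the data. Reversed signs were found for Bub3 without those types (-0.02) and for Anapc1 with probe sets averaged (-0.13). Among cell type markers that were not called, signs turned for Myod1 with probe sets averaged (0.04), for Itga7 and Csf1r with samples centred (both 0.02), and for Csf1r with array weights (0.01). With 1 sample left out the log2 change ran from -0.15 to 0.04 for Csf1r, from -0.07 to 0.01 for Itga7 and from -0.01 to 0.08 for Sox10. Cohesin and separase genes called higher numbered 4 with no brightness filter and between 4 and 8 with 1 sample left out. In the same fits 8.25%, and 14.9% to 18.9%, of all genes tested were called higher. Over all genes, leaving out 1 sample gave between 3433 and 4136 calls.

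Deviations of samples with the same replicate number correlated at 0.10, -0.01 and 0.08, so the numbers were not taken to pair the samples. With the replicate number as a block 4173 genes were called, 37 members were higher and 1 lower, with a median change of 0.38. The other kinetochore, anaphase-promoting complex and cohesin lists had 16, 7 and 6 genes higher. In that fit 18.5% of all genes tested were called higher. Precision is limited by 3 arrays per coating and, for dim probe sets, by signals near the floor.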
